A study of Mus musculus with 6 samples.

Results

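Cytosolic ribosomal proteins and their paralogs were examined in a mouse leukaemia of T-cell precursors (T-cell acute lymphoblastic leukaemia, T-ALL) with and without Phf6. Members were the gene rows whose symbol starts with Rpl or Rps followed by a digit or by p, together with Rpsa. Rows named as pseudogenes with -ps, the Rps6k kinases and Rps19bp1 were left out. The rule gave 89 of 23306 gene identifiers, and all 89 were found in GENCODE M21 (GRCm38) and tested. Of these, 77 were core members, 46 of the large and 31 of the small subunit. The other 12 rows were paralogs or retrocopies, of which 6 were annotated as protein coding (Rpl22l1, Rpl7l1, Rps27l, Rpl3l, Rpl36al and Rps27rt) and 6 as pseudogenes (Rpl37rt, Rpl32l, Rpl6l, Rps4l, Rps3a2 and Rps3a3). Rpl39l was not analysed here.

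PolyA RNA was sequenced from 6 isogenic T-ALL samples on the C57BL/6 strain, harvested from bone marrow. The design set 3 libraries labelled Phf6 wild type (WT) against 3 labelled Phf6 knockout (KO). Phf6 encodes a nuclear protein with PHD fingers, and its mutation recurs in human T-ALL. Deletion used a Cre recombinase induced by intraperitoneal tamoxifen, with corn oil as the vehicle. The labels do not say which libraries received which agent, so any part of drug exposure in a difference cannot be told apart from loss of the gene. The labels describe the leukaemia as isogenic, which limits the comparison to that leukaemia, and do not tie the samples to separate animals. All p-values below thus reflect the spread among these 6 samples only, which may be technical.

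Each cytosolic ribosome contains a single copy of nearly all of the core proteins, and the large and small subunits are assembled in the nucleolus before export. Ribosomal protein mRNAs begin with a terminal oligopyrimidine (TOP) tract, a short run of C and U at the cap through which growth signals control their translation. Several members have retrotransposed copies or paralogs whose proteins can replace the parent in the ribosome or act in its assembly. In human T-ALL, RPL5, RPL10, RPL11 and RPL22 are recurrently altered by mutation or deletion.

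Between 46067511 and 54953145 reads were assigned to genes in each library. Phf6 itself fell, with values of 5508, 4240 and 5075 in WT and 1781, 2337 and 1755 in KO (log2 fold change -1.34, limma, adjusted p = 0.00184). A value here is the deposited value, a gene count already divided by the size factor of its library. The T-lineage genes used as a check of the labelled cell type were present, and the 13 used of 14 listed genes summed to between 6453 and 6886 CPM (counts scaled to the assigned reads of the library) in WT and between 5497 and 6269 in KO, with 3 of the 13 called as lower. Markers of other bone marrow cells also differed between the groups. The 16 neutrophil and granulocyte markers summed to 125, 463 and 205 CPM in WT libraries 1 to 3 and to 1333, 1373 and 1083 in KO libraries 1 to 3, and 9 of the 16 rose. The 12 monocyte and macrophage markers summed to between 39.5 and 67.9 CPM in WT and between 109 and 146 in KO, with 6 called as higher, and the 10 B cell markers to between 2.91 and 4.06 CPM in WT and between 6.56 and 15.6 in KO, with 6 of 8 tested called as higher. The 10 erythroid markers summed to between 5.95 and 11.5 CPM in WT and between 8.16 and 18.6 in KO, and 0 of 9 tested were called (limma). None of these markers was at 0 in all libraries. Their part in the results on ribosomal proteins was not tested. In bulk samples, fewer cells of a type and less RNA per cell cannot be told apart.

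Ribosomal protein transcripts took overlapping shares of the reads in the 2 groups. The 89 rows held 9.24%, 10.7% and 9.71% of the reads in WT libraries 1 to 3 and 10.2%, 9.21% and 8.85% in KO libraries 1 to 3. The ranges overlapped, and KO library 1 exceeded both WT library 1 and WT library 3. WT averaged 9.89% ± 0.764 and KO 9.43% ± 0.709 (SD, n = 3 each), a difference of -0.46 percentage points that is smaller than either SD. Without WT library 2 the difference was -0.05 percentage points, without KO library 3 it was -0.18, and without KO library 1 or WT library 1 it was -0.86 or -0.79. Large-subunit rows held 5.55% ± 0.395 of the reads in WT and 5.27% ± 0.388 in KO (SD, n = 3), and small-subunit rows 4.34% ± 0.369 and 4.16% ± 0.323 (SD, n = 3).

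**Figure D1:**
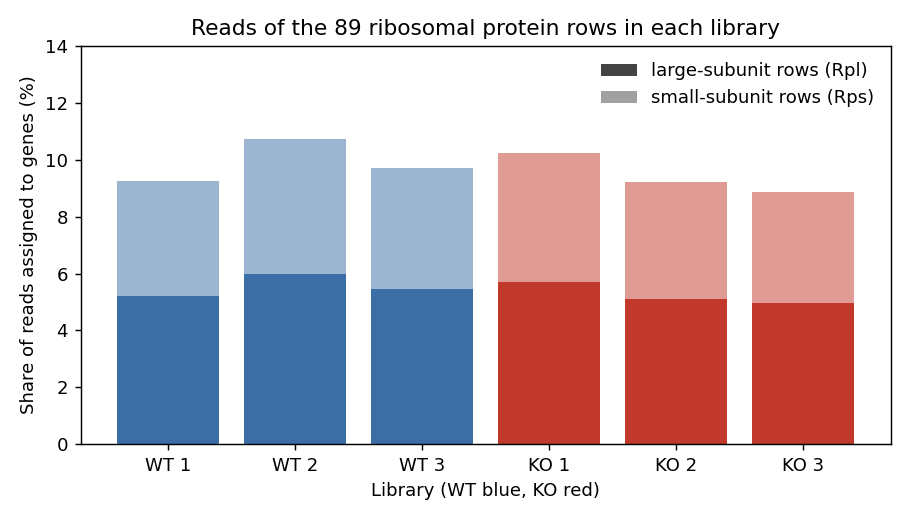
Share of the reads assigned to genes (%, vertical axis) that fell in the 89 ribosomal protein rows in each of the 6 libraries, with large-subunit rows in solid and small-subunit rows in pale colour. WT library 2 is highest at 10.7% and KO library 3 lowest at 8.85%, and the WT and KO bars overlap in height.

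Gene by gene, differences were small and most pointed to lower levels in KO, but few passed the test. Of the 89 members, 1 rose (Rps4l) and 2 fell (Rpl7l1 and Rpl13a), in a test across 17993 genes in which 8.75% were called, 5.32% as higher and 3.43% as lower (limma on log2(value + 2), Benjamini-Hochberg adjusted p under 0.05). The same 3 members were called by edgeR and by DESeq2 on the recovered reads. Those tools used the same libraries and the same filter, so they are not independent support. Rps4l passed that filter only through the KO libraries, in which it is high. The fitted log2 fold change was below 0 for 84 of the 89 members, with a median of -0.16, against 51.7% of all genes tested and a median of -0.01. All 3 KO values lay below all 3 WT values for 18 members and above them for 1, while 16.2% of all genes tested had KO below WT and 15.0% had KO above WT. In the tenth of genes with the highest mean, to which 76 members belong, the 1723 genes that are not members had a median of -0.12. Of these, 74.1% were lower in KO, 33.3% had KO below WT and 7.89% fell, while among the 89 members 20.2% had KO below WT and 2.25% fell.

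Among the 77 core members, 1 fell, 75 had a log2 fold change below 0, and 76 lay between -0.3 and 0.1. The median log2 fold change was -0.16 for both the 46 large-subunit members, of which 1 fell and 11 had KO below WT, and the 31 small-subunit members, of which 0 were called and 4 had KO below WT. At an unadjusted p under 0.05 stood 10 of the large-subunit and 2 of the small-subunit members, 15.6% of the core, against 25.2% of all genes tested. A median this small moved with the scaling and with single libraries. The core median was -0.07 with library totals as the scaling (63 of 77 lower), -0.07 without WT library 2, -0.08 without KO library 3 and -0.22 without KO library 1.

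The core members moved almost as a block between libraries, and the order of the libraries cut across genotype. WT library 2 was the highest of the 6 libraries for 75 of the 77 core members, and KO library 3 was the lowest for 67. On the log2 scale, the median deviation from a member's own mean was -0.02, 0.22 and 0.02 in WT libraries 1 to 3 and 0.05, -0.08 and -0.19 in KO libraries 1 to 3. KO library 1 exceeded the lowest WT library for 62 members and the median WT library for 53. WT library 2 was not the highest for Rpl13a and Rpl24, which are described below with their annotation. KO library 2 was the lowest for 8 members, WT library 1 for Rps27 and WT library 3 for Rpl24. The neutrophil markers summed to 125, 463 and 205 CPM in WT libraries 1 to 3 and to 1333, 1373 and 1083 in KO libraries 1 to 3. WT library 2 thus had the largest sum of its group and KO library 3 the smallest of its group. KO library 2 had the largest sum of all 6 libraries but a median deviation of -0.08, and every KO sum was above every WT sum. Whether cell content bears on the block was not tested.

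**Figure D2:**
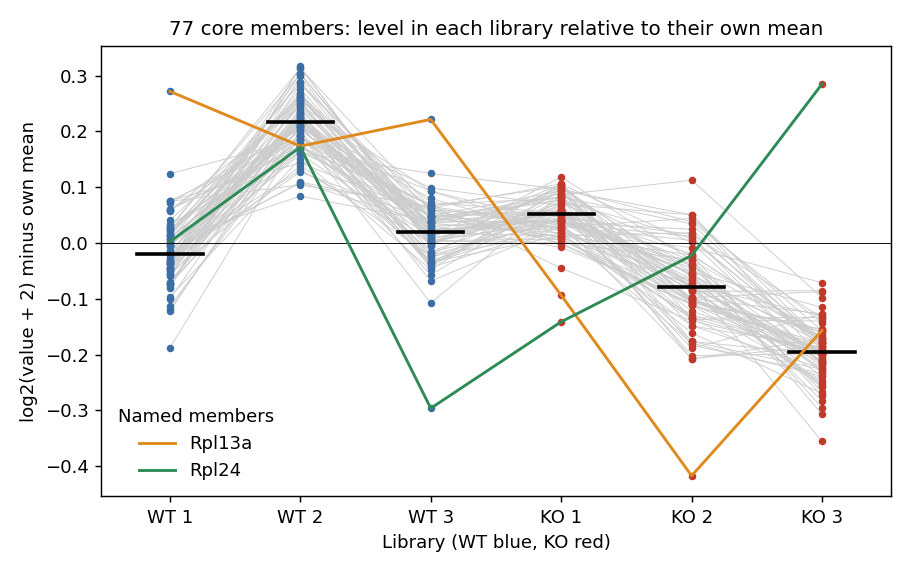
Level of the 77 core members in each library as log2(value + 2) minus the member's mean over the 6 libraries (vertical axis), with 1 point and 1 grey line per member and black bars at the medians. The medians run from 0.22 in WT library 2 to -0.19 in KO library 3, KO library 1 lies within the WT range, and the coloured lines of Rpl13a and Rpl24 leave the block.

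When all libraries were rescaled so that the geometric mean of the core members was equal, a setting chosen after the data were seen, no core member was called and Rps4l alone was called among the members, with 6.24% of all genes called. Core log2 fold changes then ran from -0.30 (Rpl13a) to 0.23 (Rpl24). That scaling moved the median of all genes by 0.14 on the log2 scale, so these values are relative to the ribosomal proteins themselves.

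Rpl7l1 had the smallest p of the members that fell. It is a paralog of Rpl7, a large-subunit protein, and its product is known as a factor of large-subunit assembly. The gene lies at chr17:46773907-46782672 (GRCm38, minus strand, protein coding, 7 exons). Its values were 7170, 6852 and 7087 in WT and 5220, 5411 and 4537 in KO. Every KO library lay below every WT library, by more than the spread within either group. The log2 fold change was -0.48 ± 0.09 (SE; 95% interval -0.67 to -0.29; limma, adjusted p = 0.0115). The call was lost without KO library 3 (adjusted p = 0.0558) and without WT library 1 (adjusted p = 0.0574), with log2 fold changes of -0.40 and -0.47. Gm26904 overlaps the gene on the opposite strand, with values of 3.003 to 9.04, and none of the 2457 windows of 150 bases, the read length, in the Rpl7l1 transcript matched another annotated transcript. The parent Rpl7 had values of 94497, 103670 and 94997 in WT and 90832, 81124 and 76876 in KO, also without overlap, and was not called (-0.24, adjusted p = 0.134). The coding sequences are shown because their divergence bears on whether reads of parent and paralog can be mixed: they were 55.0% identical, with no identical run over 10 bases. An aligned stretch of 60 coding bases (GENCODE M21 transcripts, GRCm38; capitals mark the 25 bases that differ) reads:
Rpl7: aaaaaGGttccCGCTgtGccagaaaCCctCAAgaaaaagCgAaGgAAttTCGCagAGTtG
Rpl7l1: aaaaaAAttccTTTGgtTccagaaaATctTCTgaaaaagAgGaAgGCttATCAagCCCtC

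Rpl13a, a large-subunit protein that is also known for a role in translational silencing outside the ribosome, was the core member that fell. Its values were 2789, 2605 and 2693 in WT and 2165, 1729 and 2072 in KO, again without overlap. The log2 fold change was -0.44 ± 0.10 (SE; 95% interval -0.67 to -0.22; limma, adjusted p = 0.026). This call was lost under more of the settings run than that of Rpl7l1. It was lost when libraries were scaled by their totals (-0.36, adjusted p = 0.0691) and without KO library 2 (-0.35, 0.0622), KO library 3 (-0.48, 0.0913), WT library 1 (-0.42, 0.116) or WT library 3 (-0.44, 0.0863). The row also stands apart from the rest of the core in level. The gene, at chr7:45125558-45128761 (GRCm38, minus strand), shares 59.3% of the exon bases of its principal transcript with the same-strand gene Gm45713, and 52.7% of its 150-base windows match another transcript. Its per-length level, in CPM per kb of principal transcript (RPKM), was 45.2 against a core median of 1328. Since the counting could split reads between these genes, the value of this row and its fall are uncertain.

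Rps4l was the member that rose. It is a transcribed processed pseudogene named after Rps4x, the X-linked gene for a small-subunit protein, and lies in 1 exon at chr6:148354656-148355598 (GRCm38, plus strand). Its values were 3.003, 7.90 and 2.71 in WT and 41.7, 23.9 and 31.1 in KO, from 14 reads in all in the WT libraries and 94 in the KO libraries. The lowest KO value was about 3 times the highest WT value. The log2 fold change was 2.44 ± 0.40 (SE; limma, adjusted p = 0.00774), a scale that understates the change of so low a gene. The row reached the minimum value of 10 only through the KO libraries, the group in which it is high, so any row that entered the test this way had to differ, and its call carries less weight than those of the other members. It had no test when a KO library was left out. Rps4x had values of 105867, 111016 and 104004 in WT and 102345, 93525 and 87971 in KO and was not called (-0.18, adjusted p = 0.226), so the copy made up at most 0.0408% of the pair in any library.

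The copy and its parent have diverged in sequence. Rps4l was 79.8% identical to the Rps4x coding sequence, and none of its 794 windows of 150 bases matched another transcript. Their starts are shown for that reason, with capitals at the 7 of 60 bases that differ (GENCODE M21, GRCm38; bases 1 to 60 of the Rps4x coding sequence and 55 to 114 of the Rps4l transcript):
Rps4x: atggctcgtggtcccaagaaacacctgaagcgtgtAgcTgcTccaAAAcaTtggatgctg
Rps4l: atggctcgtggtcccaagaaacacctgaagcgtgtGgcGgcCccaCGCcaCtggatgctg
Rps4l lies inside Tmtc1, which is on the opposite strand and had values of 8.01, 2.96 and 9.94 in WT and 18.8, 6.23 and 27.1 in KO. Tmtc1 overlapped between the groups and did not pass the filter. In GENCODE M21, 0% of the Rps4l exon bases lie in an exon of a gene on the opposite strand, so the 2 genes share no annotated exon. Whether the counting used strand is not given in the sources used here. Without strand, reads of unspliced Tmtc1 RNA across Rps4l could not be told apart from its own. The summed neutrophil markers, of which 9 of 16 rose, were also higher in KO, with a largest WT sum of 463 CPM and a smallest KO sum of 1083 CPM, and their part in the Rps4l result was not tested.

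**Figure D3:**
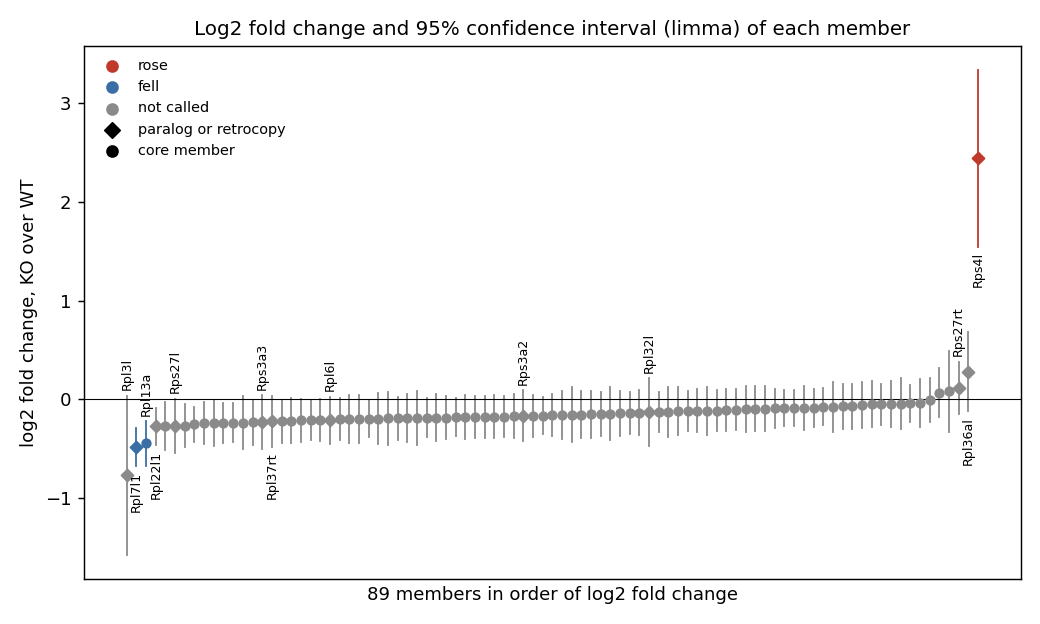
Log2 fold change of KO over WT (vertical axis) with its 95% confidence interval for each of the 89 members in order, with circles for core members and diamonds for paralogs and retrocopies. Rps4l (red) stands alone at 2.44, Rpl7l1 and Rpl13a (blue) lie at -0.48 and -0.44, and most other members lie just below 0.

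Rpl22l1 and Rpl22 form the pair most discussed in T-ALL, where RPL22 is a recurrently deleted gene and its protein is known to restrain expression of the paralog. Rpl22l1 (chr3:28805436-28807424, GRCm38, plus strand) had values of 6717, 7447 and 6443 in WT and 5941, 5710 and 5376 in KO, with no overlap. It missed the threshold (-0.27 ± 0.08, SE; adjusted p = 0.0763). Rpl22 (chr4:152325742-152334071, plus strand) had values of 28807, 30392 and 29462 in WT and 30255, 27190 and 26195 in KO, which overlapped (-0.09, adjusted p = 0.564). The paralog made up 18.9%, 19.7% and 17.9% of the pair in WT and 16.4%, 17.4% and 17.0% in KO. These shares did not overlap, and the log2 ratio of paralog to parent was lower in KO by a difference of -0.19. In the two-sided exact permutation test its p was 0.1, the smallest that 3 against 3 allows, or 0.25 after Benjamini-Hochberg adjustment over 10 pairs. The 2 coding sequences were 68.7% identical and shared no window of read length with each other, though 23.8% of the Rpl22l1 windows matched some other transcript and 28.8% of its exon bases lie opposite Gm33051. A stretch in which 21 of 60 bases differ (capitals) shows how far reads can separate them:
Rpl22: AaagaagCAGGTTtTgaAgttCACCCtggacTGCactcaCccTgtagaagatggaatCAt
Rpl22l1: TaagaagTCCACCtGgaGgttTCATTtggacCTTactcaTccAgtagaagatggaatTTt

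Rps27 has 2 partners that differ in how well reads can separate them. Rps27l, a paralog known as a target of p53, had values of 3763, 4330 and 3797 in WT and 3435, 3788 and 2719 in KO, which overlapped (-0.27, adjusted p = 0.209). Rps27 had values of 36592, 47691 and 38684 in WT and 44251, 45067 and 38947 in KO, 1 of the 2 core members with a log2 fold change above 0 (0.07, adjusted p = 0.757). As a share of the pair, Rps27l held 9.32%, 8.32% and 8.94% in WT and 7.20%, 7.75% and 6.53% in KO, without overlap (log2 ratio difference -0.34; exact permutation p = 0.1, adjusted 0.25). Rps27rt, an intronless copy inside Osbpl10 on the opposite strand, had values of 638, 766 and 632 in WT and 695, 770 and 734 in KO and was not called (0.12, adjusted p = 0.595). Its coding sequence was 100% identical to that of Rps27 over all 255 bases, and 98.0% of the Rps27 windows of read length matched another transcript, so the split of reads between these rows is uncertain. The first 60 coding bases show the contrast, with capitals where Rps27 and Rps27l differ (18 bases):
Rps27: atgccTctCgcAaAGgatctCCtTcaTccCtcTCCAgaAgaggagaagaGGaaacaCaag
Rps27l: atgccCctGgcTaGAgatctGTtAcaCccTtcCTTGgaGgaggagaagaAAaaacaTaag
Rps27rt: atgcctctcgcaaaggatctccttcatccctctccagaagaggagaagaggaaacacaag

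The remaining pairs were low copies of abundant parents. Rpl3l, the striated-muscle paralog of Rpl3, had values of 15.0, 37.5 and 22.6 in WT and 14.6, 11.4 and 13.04 in KO. The groups just failed to overlap, and it was not called (-0.77 ± 0.36, SE; adjusted p = 0.22). Rpl36al, the autosomal copy of the X-linked Rpl36a, had values of 118, 151 and 128 in WT and 154, 149 and 182 in KO (0.28, adjusted p = 0.369). Against Rpl36a its log2 ratio was higher in KO by 0.37 without overlap (exact permutation p = 0.1, adjusted 0.25), and 26.0% of its exon bases lie in the same-strand gene Gm49383. Of the 10 pairs tested, these 2 had opposite directions, and 4 had ratios that did not overlap: Rps4l (2.62), Rpl22l1, Rps27l and Rpl36al. Among the values of all single genes tested, 31.2% did not overlap between the groups in either direction, so a count of 4 in 10 does not set the pairs apart. Rps4l also passed the filter only through the KO libraries. Rpl7l1 against Rpl7 differed by -0.24 with overlap (exact permutation p = 0.2, adjusted 0.4). The copies annotated as pseudogenes with coding identity of 96.0% to 99.7% to their parents (Rpl37rt, Rpl32l and Rpl6l) had ratio differences of -0.05, -0.09 and -0.01. Rps3a2 and Rps3a3, copies of Rps3a1 with 99.5% and 98.9% identity, had log2 fold changes of -0.17 and -0.23 beside -0.13 for the parent, and none of the 3 was called.

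**Figure D4:**
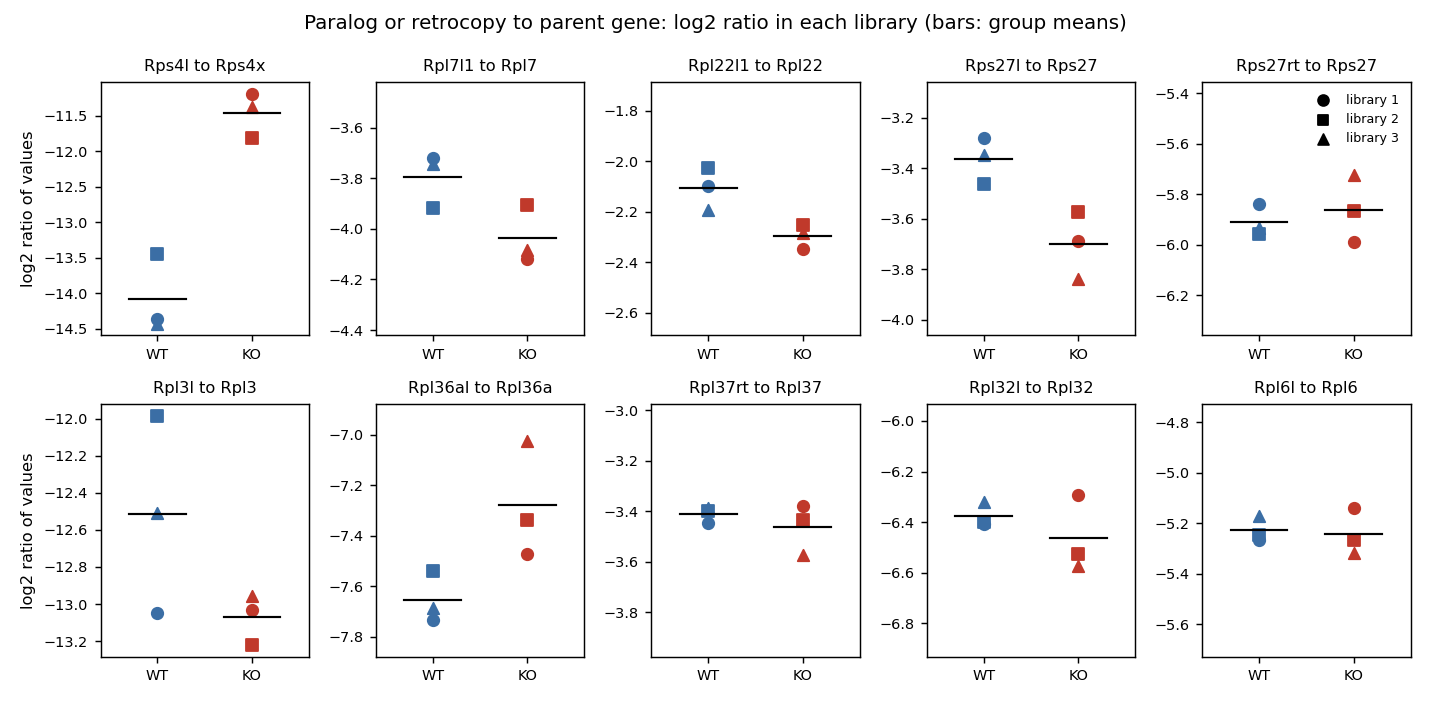
Log2 ratio of the value of each paralog or retrocopy to that of its parent (vertical axes, each with its own range) in WT (blue) and KO (red), with 1 marker per library and bars at the group means. The groups are separate for Rps4l, Rpl22l1, Rps27l and Rpl36al and overlap for the other 6 pairs.

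The members listed here for known roles in leukaemia and in ribosome disease had log2 fold changes below 0, as did 75 of the 77 core members. None of those listed was called. Rpl10, which is mutated in T-ALL and completes the large subunit, had values of 59257, 61864 and 56994 in WT and 52697, 49366 and 47525 in KO. No KO library reached a WT library, and the log2 fold change was -0.25 ± 0.08 (SE; limma, adjusted p = 0.0828). Rpl5 and Rpl11, which bind MDM2 as part of the 5S particle, had log2 fold changes of -0.19 (adjusted p = 0.232) and -0.18 (0.3), and Rpl23, another MDM2 partner, -0.09 (0.563). Diamond-Blackfan anaemia is an inherited failure of red cell production, and 9 members were listed here for it, which is not a full list. Of these 9, 0 were called with limma (0 at an unadjusted p under 0.05). Their median log2 fold change was -0.18, with Rps19 at -0.07 and Rps26 at -0.20. Rps2, a small-subunit protein near the mRNA entry channel, had values of 91588, 104422 and 93848 in WT and 89254, 77716 and 74571 in KO, the lowest fold change among core small-subunit members (-0.27, adjusted p = 0.119). The stalk proteins that recruit elongation factors, Rplp0, Rplp1 and Rplp2, had log2 fold changes of -0.15, -0.18 and -0.13 with overlapping values. Rpsa, which is both a small-subunit protein and known as a laminin receptor, stood at -0.16 (adjusted p = 0.338).

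Genes outside the member rule whose mRNAs belong to the TOP class, many of them of the translation machinery, or that host small nucleolar RNAs (snoRNAs) were listed as companions. Not all belong to the translation machinery. Vim, which does not, had the highest log2 fold change of the list (0.20, limma, adjusted p = 0.292). Of 30, 4 fell and 0 rose, 26 were lower, and the median log2 fold change was -0.17, with KO below WT in 14. Over all genes tested, 3.43% fell and 16.2% had KO below WT, and among the 1723 abundant genes that are not members, 7.89% fell and 33.3% had KO below WT. The genes that fell were the elongation factor subunits Eef1g (-0.37, adjusted p = 0.0244) and Eef1d (-0.33, 0.0348), the chaperonin subunit Cct4 (-0.32, 0.0493) and the initiation factor Eif4b (-0.30, 0.0483). Npm1, a nucleolar chaperone of ribosome assembly, just missed the threshold (-0.28, adjusted p = 0.0506). Eef1a1 (-0.17), Eef2 (-0.28), Pabpc1 (-0.25), Tpt1 (-0.10) and Rack1 (-0.20) were not called. Fau, whose product is a ribosomal protein fused to a ubiquitin-like protein, had a log2 fold change of -0.10. Of the 6 snoRNA hosts that encode no protein, 0 were called and the median was -0.09, with Gas5 at -0.08. The 4 calls depended on the setting: with library totals 1 gene was called, and without KO library 2, KO library 3, WT library 1 or WT library 3 none was.

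Per unit length of principal transcript, most core members stood above the copies. Levels are given in RPKM, averaged over the 6 libraries. The exceptions were the core members Rps15a (205), below the paralog Rpl22l1 (230), and Rpl13a (45.2) and Rpl24 (6.87), which lay among the copies. For Rps15a this held only on the principal transcript, which is 5179 bases long for a coding sequence of 393. On the union of annotated exons Rps15a stood at 169 beside 63.8 for Rpl22l1, and on coding length at 2703 beside 344. The highest were the stalk proteins Rplp1 (3386) and Rplp0 (3007), followed by Rps12 (2802), Rps3a1 (2684) and Rps18 (2680), and the core median was 1328. This order depends on the length used: by coding length Rpl41 ranked 1 and Rps29 ranked 3, and by the union of annotated exons Rps12 ranked 24 and Rps18 ranked 40, while Rplp1 ranked 1 or 2 by every length. The lowest were Rpl3l (0.278), Rps4l (0.405), Rpl36al (2.35), Rpl24 (6.87) and Rps27rt (38.3). Rpl22l1 stood at 230 beside 284 for its parent Rpl22 on the principal transcripts, but at 63.8 beside 200.035 on the union of annotated exons and at 344 beside 1505 on coding length. Of the 77 core members, 75 had values above 10000 in every library, and the other two were Rpl13a and Rpl24.

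Rpl24, a large-subunit protein at the bridge between subunits, had values of 227, 256 and 184 in WT and 206, 223 and 277 in KO, with full overlap (0.08 ± 0.18, SE; adjusted p = 0.825). Its principal transcript has 71.5% of its exon bases in the same-strand gene Gm28037 and 72.5% of its windows in another transcript. The gene lies at chr16:55966275-55971435 (GRCm38, plus strand). Rps10 shares 53.6% of its exon bases with the same-strand RPS10-NUDT3 and had a level of 1157. Whether the overlaps bear on the low values of Rpl13a and Rpl24 was not tested. The annotation used for counting is not given in the sources used here.

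**Figure D5:**
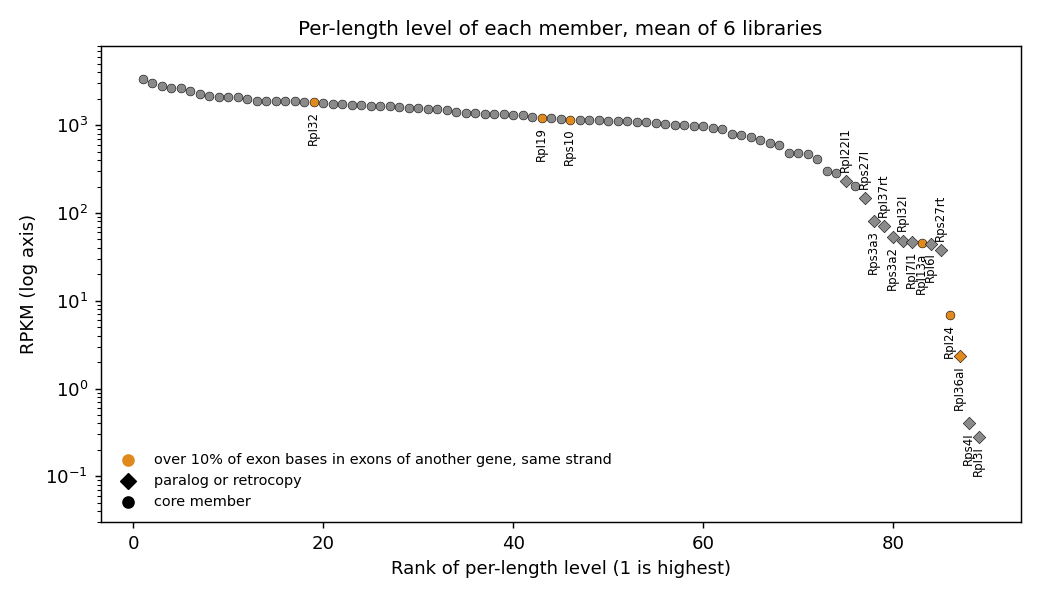
Per-length level of the 89 members in RPKM (log axis), mean of 6 libraries, against rank, with diamonds for paralogs and retrocopies and orange for members with over 10% of exon bases in another gene on the same strand. Rpl13a (45.2) and Rpl24 (6.87) lie among the copies, far below the core median of 1328.

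Shared sequence limits how far single rows can be read. Among core members, 20 had at least 50% of their 150-base windows in another annotated transcript, 9 had none, and the median was 27.8%. The log2 fold change had a Spearman rho of -0.04 with that percentage across the 77 core members, of -0.37 with coding length, -0.21 with mean value, -0.05 with GC content and -0.09 with transcript length, as a description across genes that share the same 6 libraries and are not independent replicates. A same-strand snoRNA gene lay within the span of 30 core members (58 snoRNA genes in all). These 30 had a median log2 fold change of -0.16, and the other 47 one of -0.15. KO lay below WT in 33.3% of the 30 and 10.6% of the 47, against 16.2% of all genes tested. At an unadjusted p under 0.05 (limma) stood 26.7% and 8.51%, against 25.2% of all genes tested. The difference between these sets was not tested. The 4 X-linked core members had a median of -0.14. Rows named as ribosomal protein pseudogenes, which the rule left out, held 0.201% of the reads in WT and 0.187% in KO. Of 188 such rows, 163 were tested, none was called (limma; 10.4% at an unadjusted p under 0.05, against 25.2% of all genes tested), 136 were lower in KO, and the median was -0.17, close to that of the core.

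Transcription start windows are shown because the TOP tract that unites these mRNAs lies there. Of 65 members found in the RefSeq promoter table (GRCm38.p6), 49.2% held CTTTC on the sense strand between 20 bases before and 50 after the annotated start, against 10.4% of 27025 genes. The longer CTCTTT, which overlaps CTTTC wherever a C follows, was in 29.2% against 3.04%. CCGGAAG, the core of ETS family motifs, searched on both strands from 250 bases before to 50 after the start, was in 38.5% against 9.93%. These matches describe the letters and not bound sites. Windows of 30 bases, from 10 before the annotated start, are given for core members with the tract, for Rpl13a and for the paralogs of the pairs above, with CTTTC or CCGGAAG in capitals.
Rpl28 (chr7:4792955-4792984, plus strand): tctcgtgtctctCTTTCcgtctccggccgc
Rpl15 (chr14:18270967-18270996, minus strand): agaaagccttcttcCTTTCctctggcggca
Rps27 (chr3:90213629-90213658, minus strand): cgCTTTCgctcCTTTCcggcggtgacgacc
Rpl13a (chr7:45128726-45128755, minus strand): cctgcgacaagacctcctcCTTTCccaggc
Rpl22l1 (chr3:28805498-28805527, plus strand): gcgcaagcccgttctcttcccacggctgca
Rps27l (chr9:66946076-66946105, plus strand): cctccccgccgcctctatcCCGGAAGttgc
Rpl7l1 (chr17:46782637-46782666, minus strand): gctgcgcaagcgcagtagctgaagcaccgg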

How the data were processed

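PolyA RNA of 6 samples was sequenced as paired ends of 150 bases with the NEBNext Ultra RNA kit, per the labels' protocols. The submitters' processing notes name GRCm38, STAR 2.6.0a, bcl2fastq 1.8.4, DESeq2 and featureCounts. For the annotation, strand setting and multi-mapping reads, the choice is not given in the sources used here. The authors deposited a normalised signal per gene, which the values show to be counts divided by 1 size factor per library. Dividing by each library's step gave whole reads for 100% of values (tolerance 0.01). Of 23314 rows, 8 had no identifier (at most 0.00106% of reads) and were left out, and 23277 identifiers were found in GENCODE M21.

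The main test was limma 3.58.1 under R 4.3.3, run on log2(value + 2) with the trend and robust options. It covered the 17993 genes that reached 10 in at least 3 libraries, with Benjamini-Hochberg adjustment over all of them. On the recovered reads, edgeR 4.0.16 called 1395 genes and DESeq2 1.42.0 called 2233, against 1575. Ratios of paralog to parent used log2(value + 2) of both and two-sided exact permutation tests. The procedure was tested on simulated data in which genes varied independently, with a common dispersion and no library effect. That setting does not cover libraries in which genes move as a block. Replicate pairs differed beyond sampling noise (chi-square per degree of freedom 12.9 to 56.7).

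Named members were those called, all paralogs with their parents, Rpsa, and the extremes in p and level. Members listed beforehand for roles in T-ALL, MDM2 binding, Diamond-Blackfan anaemia or the stalk were also named. Results for a few genes under this rule are left out of the text. Rpl15 and Rpl28 were shown for their start sequence. The members and lists were chosen with earlier results of these data known. Alternatives covered scaling, pseudocounts of 0.5 and 8, filters, tools, a replicate block and each library left out. Sequences were aligned with Biopython 1.88, and figures used Python 3.11.15 and matplotlib 3.10.9.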

Additional observations from a re-analysis of the deposited data

How the results depend on the processing

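Of 1058 values recomputed under other settings, 968 kept their direction and their side of the threshold or, where there was no test, moved by less than the spread between replicates. The count of 3 members called became 1 with scaling by the core members (chosen after seeing the data) and ranged from 0 to 3 when each library was left out, with 0 without KO library 3 and 1 without KO library 2 or WT library 1. The companion count of 4 became 8 with DESeq2, 2 with edgeR, 0 without the number-2 libraries, 1 with library totals, with or without member rows, 0 with core scaling, and 0 to 2 with each library left out. The core median per-length level of 1328 became 623 with the union of exons and 2278 with coding length, the latter chosen after seeing the data. The difference in share of reads (-0.46 percentage points) ran from -0.86 to -0.05 with each library left out and was 0.06 without the number-2 libraries. Genes called as higher and lower numbered 957 and 618, but 1217 and 300 with library totals, 1200 and 336 with totals without member rows, and 1053 and 71 with core scaling. Without KO library 3, 191 genes were called in all.

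Directions also reversed for fold changes and ratios near 0, and the cause was not tested. With the number-2 libraries left out, library totals and totals without member rows, the log2 fold changes were 0.026, 0.042 and 0.035 for Rpl32, 0.011, 0.014 and 0.0065 for Rps12, and 0.0054, 0.010 and 0.0026 for Rps19. Gas5 was 0.0064 with library totals. With each library left out in turn, log2 fold changes ran from -0.047 to 0.187 for Rpl24, -0.113 to 0.061 for Rpl32, -0.271 to 0.019 for Rpl32l, -0.131 to 0.017 for Rps12, -0.145 to 0.024 for Rps19, -0.0096 to 0.181 for Rps27 and -0.179 to 0.018 for Fau. Ratio differences then ran from -0.020 to 0.112 for Rps27rt, -0.091 to 0.0049 for Rpl37rt and -0.065 to 0.025 for Rpl6l.

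With a replicate block, 2568 genes were called and 1 member rose and 3 fell, Rpl22l1 being the addition (-0.27, adjusted p = 0.0428). Same-numbered libraries had correlations of 0.01, 0.50 and 0.14 in their deviations from group means, so the numbers were not taken as pairs, and KO library 1 correlated best with WT library 3 (0.38). Low depth limits Rps4l (14 WT reads) and Rpl3l (38 KO reads).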
